A study of Mus musculus with 16 samples.

Results

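The cell cycle and DNA replication genes of sorted olfactory mucosa are described here across 16 microarrays. The members are 36 named genes that replicate DNA, condense chromosomes or drive mitosis. They were chosen by name, with earlier results of these data known. Of them, 34 had 1 probe set each among the 22206 probe sets tested. Ccnb1, the cyclin B1 partner of Cdk1, and Mcm7, a subunit of the replicative helicase, had no probe set under their symbol in the annotation used and were not analysed here.

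All animals, male and female and aged 7 to 12 weeks, carried the S100a5-tauGFP reporter, and the sources used here do not describe its promoter or insertion. Olfactory mucosa of 8 pools of 3 mice was dissociated, and each pool was sorted into 1 GFP+ and 1 GFP- sample. Over 40 h in chambers, 4 pools received pulses of odor and 4 pools received pulses of filtered air (vehicle) from 26 h on, which gave 4 arrays for each of the groups vehicle GFP-, vehicle GFP+, odor GFP- and odor GFP+. The odor was 1-pentanethiol by the sample labels and the series title, while the design text names bourgeonal, and the sample labels were followed. Whether the pools came from separate experiments is not stated, so a p-value measures the spread between these pools.

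A dividing cell copies its DNA once and then separates the copies. Licensing places the Mcm helicase on origins in G1, E2F factors switch on the genes of S phase, and Cdk1 with cyclins A and B drives mitosis, during which the anaphase-promoting complex destroys the mitotic regulators. In the olfactory epithelium, globose basal cells divide throughout life and renew the sensory neurons, horizontal basal cells are mostly quiescent, and the mature neurons have left the cycle. Precursors of blood cells divide as well, and S100a5 is a calcium-binding protein whose expression in olfactory neurons follows their activity.

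The values are log2 signals as deposited, so a difference of 1 is a 2-fold difference in signal. A level is comparable between arrays for 1 gene but not between genes. The median of 5222 negative control entries was 5.99 to 6.12 on the GFP- arrays and 6.22 to 6.48 on 7 GFP+ arrays, and 7.28 on the GFP+ array of vehicle pool 2. A member at or below that median on every array of a group is called not above background there. S100a5 exceeded its GFP- level in the GFP+ samples, by 0.87 ± 0.12 with vehicle and by 0.99 ± 0.12 with odor (log2 difference ± SE, adjusted p = 3.51e-05 and 7.79e-06), and the olfactory marker protein Omp was at a mean of 18.27 to 18.35 in all 4 groups.

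Promoters of the members are shown first, because genes of mitosis and genes of DNA replication are known to carry different short motifs. The CHR (cell cycle genes homology region, searched as TTTGAA) and the CCAAT box (CCAAT) are known from mitotic genes, and the E2F core (searched as TTGGCGC, also as TTCCCGC, as TTGCCGC and as TTCGCGC) from S phase genes. Both strands were searched, and overlapping matches were counted separately. In the 250 bases before the annotated start, the RefSeq table (GRCm38.p6) held 29 of the 34 measured members. It did not hold Ccna2, Mcm4, Aurkb, Kif20a and Tpx2. Of the 29 promoters, 24 (82.8%) held a CCAAT box, against 34.5% of all 27025 promoters, and 15 (51.7%) held at least 2, against 10.5%. The CHR was in 9 (31%) against 16.3%, and an E2F core in 6 (20.7%) against 7.97%. Of the 9 promoters of replication and nucleotide supply members, 1 (11.1%) held a CHR and 4 (44.4%) an E2F core. Of the 20 promoters of the other members, 8 (40%) held a CHR and 2 (10%) an E2F core. The CCAAT box was common to both, in 7 of the 9 (77.8%) and in 17 of the 20 (85%).

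The promoters of Ube2c (chr2:164769679-164769928, plus strand), Ccnb2 (chr9:70421555-70421804, minus strand), Cdk1 (chr10:69352913-69353162, minus strand) and Mcm5 (chr8:75109259-75109508, plus strand) are printed because they show these motifs side by side in genes with large measured differences between the sorted fractions. Ube2c, Cdk1 and Mcm5 were not above background in GFP+ cells, so the size of their differences is not exact. Each promoter runs 5′ to 3′ to the base before the start, in the direction of the gene, and the capitals mark matches on either strand.
Ube2c: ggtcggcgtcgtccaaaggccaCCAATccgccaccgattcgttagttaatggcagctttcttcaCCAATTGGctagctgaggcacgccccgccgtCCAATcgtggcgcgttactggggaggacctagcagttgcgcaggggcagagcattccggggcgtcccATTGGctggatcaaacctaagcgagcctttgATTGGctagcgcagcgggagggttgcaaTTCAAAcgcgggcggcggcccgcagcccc
Ccnb2: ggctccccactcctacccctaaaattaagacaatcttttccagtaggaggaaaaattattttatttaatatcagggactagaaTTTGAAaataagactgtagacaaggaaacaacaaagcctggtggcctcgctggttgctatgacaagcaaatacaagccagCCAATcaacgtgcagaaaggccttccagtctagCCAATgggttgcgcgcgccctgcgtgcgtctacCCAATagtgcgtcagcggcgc
Cdk1: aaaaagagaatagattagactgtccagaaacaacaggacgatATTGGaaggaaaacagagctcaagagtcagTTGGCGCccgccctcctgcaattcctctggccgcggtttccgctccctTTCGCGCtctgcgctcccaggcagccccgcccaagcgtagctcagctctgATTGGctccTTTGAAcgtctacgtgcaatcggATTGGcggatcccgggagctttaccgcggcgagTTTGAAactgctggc
Mcm5: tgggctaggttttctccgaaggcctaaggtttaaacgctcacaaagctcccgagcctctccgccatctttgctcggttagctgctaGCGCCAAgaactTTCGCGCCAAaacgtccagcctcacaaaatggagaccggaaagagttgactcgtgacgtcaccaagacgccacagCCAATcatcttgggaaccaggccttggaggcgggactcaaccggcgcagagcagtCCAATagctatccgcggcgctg

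Ube2c held 6 CCAAT matches, of which 1 pair overlaps, and 1 CHR on the opposite strand. Ccnb2 held 3 CCAAT boxes, all in the sense direction, and 1 CHR. Cdk1 held 3 CCAAT, 2 CHR and 2 E2F matches, and Mcm5 held 3 E2F and 2 CCAAT matches and no CHR. Nusap1, Tyms, Tk1, Birc5 and Ndc80 held none of the motifs in this window. A match says only that the letters are there.

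Extending the window to 50 bases after the start raised the share with a CHR to 17 of 29 (58.6%), against 18.1% of all promoters. In this window 16 of 20 promoters (80%) of the members outside replication and nucleotide supply held a CHR, against 1 of 9 (11.1%) of the replication and nucleotide supply members. An E2F core was in 2 of 20 (10%) and in 5 of 9 (55.6%), against 9.69% of all promoters. That division of the members was made after the roles were set and has no test. The sites of 6 members with a CHR at or just after the start are printed with 10 bases on each side, because they are among the matches the longer window added. They belong to Ccnb2 (chr9:70421535-70421560, minus strand), Plk1 (chr7:122159455-122159480, plus), Aurka (chr2:172370523-172370548, minus), Cenpf (chr1:189688069-189688094, minus), Kif23 (chr9:61946782-61946807, minus) and Prc1 (chr7:80294436-80294461, plus). Ndc80 held another on the opposite strand. The capitals mark the CHR.
Ccnb2: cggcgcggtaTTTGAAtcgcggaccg
Plk1: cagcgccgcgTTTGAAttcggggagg
Aurka: aaggagaaccTTTGAAttgtaacggc
Cenpf: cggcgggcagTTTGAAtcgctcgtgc
Kif23: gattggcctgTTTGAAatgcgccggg
Prc1: tctggctcggTTTGAAttccgcgggg

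The first comparison asks which members differ between cells with and without the reporter signal. All 34 members were lower in GFP+ than in GFP- cells of the vehicle pools, at a limma adjusted p under 0.05, as were 11.8% of all probe sets tested. Their median difference was -2.57, against 0.11 over all probe sets, and the measured values ran from -6.40 (Ube2c) to -0.59 (Tk1). In the odor pools 31 of the 34 were lower, as were 11.9% of all probe sets, with a median of -2.58 against 0.13. Prc1, Cdca8 and Tk1 did not pass there. By the measured values 22 members were more than 4-fold lower in each kind of pool, against 3.99% and 3.98% of all probe sets. For 11 members not above background in GFP+ cells the measured difference has no exact size, and only a bound holds, from the background level of each GFP+ array. With these 11 at their bound, or at 0 where the bound was below 0, 16 members were more than 4-fold lower in each kind of pool, and the medians were -1.90 and -1.83. The others kept their measured values, though many were at or below background on some GFP+ arrays, so this count and these medians are not exact. With vehicle this was so for Mki67, Nusap1, Plk1, Ccna2, Bub1b and Aurkb on 2 of 4 arrays, and for Ccnb2 and Rrm2 on 1. Mcm6 was above background on all 4. These are bulk samples, so fewer dividing cells and less RNA per cell cannot be told apart.

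Within the pools, 31 members were lower in the GFP+ sample of all 8 pools, as were 12.5% of all probe sets. Mcm4, Tk1 and Cdca8 were lower in 7 of 8. The 4 GFP+ and 4 GFP- values of a member did not overlap for 32 of 34 members in the vehicle pools (12% of all probe sets, lower) and for 32 in the odor pools (12.3%). The exceptions were Tyms and Mcm4 in the vehicle pools and Cdca8 and Tk1 in the odor pools. Setting the array medians equal raised the median difference of all probe sets by 0.35, from 0.11 to 0.46, in the vehicle pools. In the odor pools it rose by 0.33, from 0.13 to 0.46. The same shift was added to the difference of every member. With this setting 28 members were lower in the vehicle pools, since Pcna, Mcm4, Tyms, Tk1, Aurka and Prc1 no longer passed. In the odor pools 31 were lower, and Tk1 was called higher, at 0.42 against a median of 0.46 over all probe sets.

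**Figure D1:**
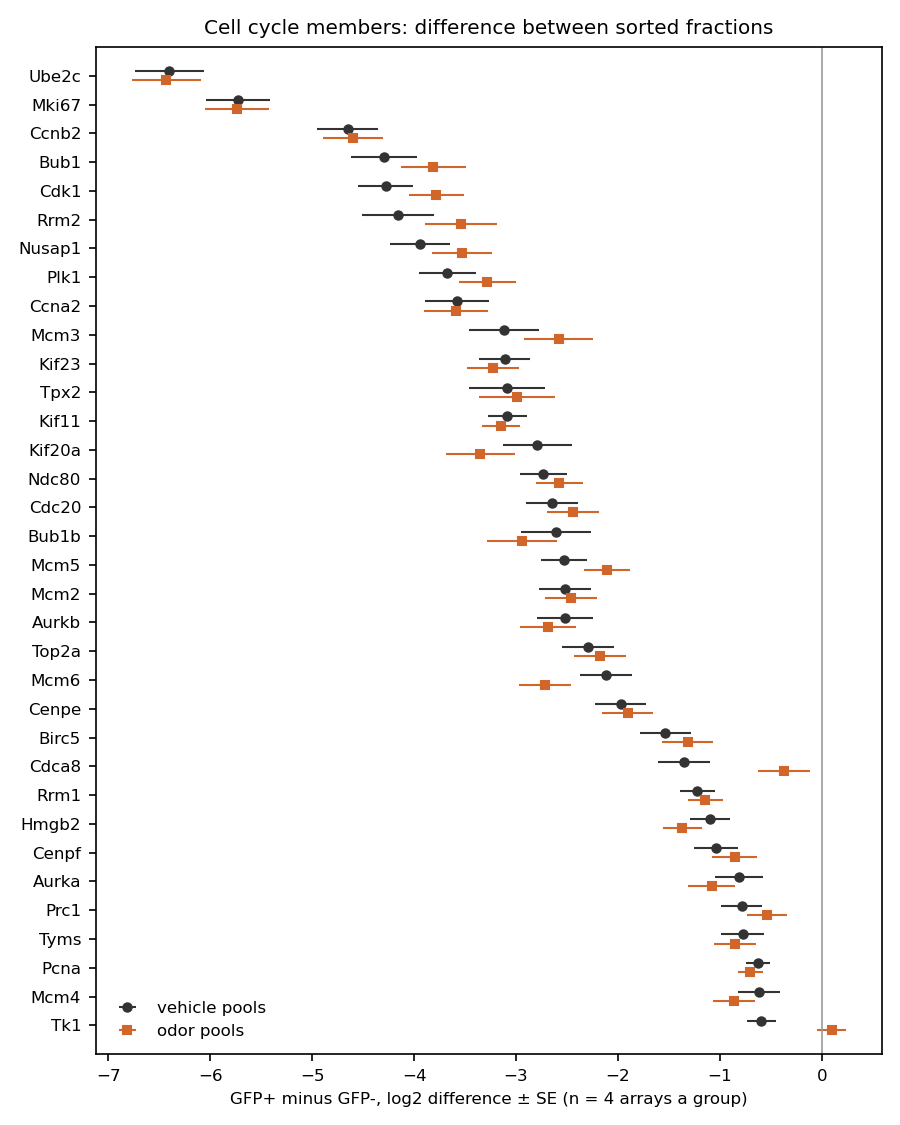
GFP+ minus GFP- difference of each of the 34 members in log2 units, with its standard error from the fit, in the vehicle pools (circles) and the odor pools (squares), 4 arrays a group. By measured values Ube2c, which has only a bound, and Mki67 lie farthest from 0 (-6.40 and -5.73 in the vehicle pools), and Tk1 of the odor pools lies at 0.10.

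Among the genes of chromatin and chromosome structure, Mki67, the proliferation antigen Ki-67 that coats mitotic chromosomes, was far lower in GFP+ cells. On the GFP- arrays of vehicle pools 1 to 4 its level was 12.60, 12.53, 11.89 and 11.95, and on the GFP+ arrays 7.11, 6.02, 6.73 and 6.18. In the odor pools the levels were 10.78, 12.36, 12.19 and 12.29 in GFP- and 5.95, 6.01, 6.33 and 6.39 in GFP+ cells. The fractions lay far apart in all 8 pools, and the GFP- sample of odor pool 1 was below the other 3. GFP+ minus GFP- was -5.73 ± 0.31 with vehicle, a 53.1-fold lower signal (adjusted p = 7.21e-10), and -5.73 ± 0.31 with odor (adjusted p = 7.55e-10). Of the GFP+ samples, 2 of 4 with vehicle and 3 of 4 with odor were at or below background, so the GFP+ level lies near it.

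Top2a, the topoisomerase that untangles replicated chromosomes, stood at 8.86, 8.53, 9.16 and 8.85 in vehicle GFP- and 6.47, 6.54, 6.67 and 6.55 in vehicle GFP+ samples. The odor samples gave 7.88, 9.05, 8.51 and 9.09 (GFP-) and 6.16, 6.36, 6.15 and 7.19 (GFP+). The groups did not overlap, and the differences were -2.29 ± 0.25 and -2.17 ± 0.25 (adjusted p = 2.54e-06 and 4.69e-06). Hmgb2, a chromatin protein that bends DNA, was less apart. Its vehicle levels were 13.44, 13.70, 13.26 and 13.47 in GFP- and 12.48, 12.58, 12.08 and 12.33 in GFP+ cells, and its odor levels 12.88, 13.77, 13.17 and 13.76 (GFP-) and 11.90, 11.79, 12.11 and 12.30 (GFP+). Its fractions were also apart, with differences of -1.10 ± 0.19 and -1.37 ± 0.19 (adjusted p = 0.000378 and 3.83e-05), on a level well above background in both.

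The mitotic kinase Cdk1 and its cyclins were all lower, with measured medians of -4.28 in the vehicle and -3.78 in the odor pools. These medians are the differences of Cdk1 itself, and with Cdk1 at its bound they were -3.58 and -3.59. Cdk1 was at 7.72, 7.46, 6.88 and 7.71 in vehicle GFP- and 2.73, 3.51, 3.11 and 3.31 in vehicle GFP+ samples. Odor pools gave 6.19, 7.56, 7.34 and 7.04 (GFP-) and 3.05, 3.70, 3.21 and 3.05 (GFP+). All 8 GFP+ values were at or below background, so the measured differences of -4.28 ± 0.27 and -3.78 ± 0.27 (adjusted p = 3.59e-09 and 1.53e-08) have a bound of at least 1.85-fold and 1.6-fold.

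Ccnb2, cyclin B2, was at 11.89, 11.45, 11.04 and 11.79 in vehicle GFP- and 7.05, 7.11, 6.58 and 6.83 in vehicle GFP+ cells. With odor it was at 10.51, 12.12, 11.40 and 11.79 (GFP-) and 6.66, 6.62, 6.61 and 7.52 (GFP+), where the GFP+ sample of pool 4 was the highest of its group. The fractions differed, at -4.65 ± 0.30 and -4.60 ± 0.30 (adjusted p = 3.75e-09 and 4.38e-09). Ccna2, cyclin A2, acts in S phase and early mitosis. Its levels were 10.01, 10.62, 9.60 and 10.32 (GFP-) and 6.81, 6.66, 6.64 and 6.12 (GFP+) in the vehicle samples, and 8.90, 10.46, 10.26 and 10.63 (GFP-) and 6.16, 6.97, 6.36 and 6.41 (GFP+) in the odor samples. No value of a GFP+ sample reached a GFP- sample, with differences of -3.58 ± 0.32 and -3.59 ± 0.32 (adjusted p = 1.77e-07 and 1.66e-07).

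Of the replication fork and licensing genes, 6 of 6 measured were lower in both kinds of pool, with measured medians of -2.32 and -2.29 (-1.66 and -1.73 with bounds). Pcna, the sliding clamp of DNA polymerases, was bright in all samples, at 14.88, 15.003, 14.98 and 14.95 in vehicle GFP- and 14.22, 14.46, 14.27 and 14.37 in vehicle GFP+ cells. The odor levels were 14.67, 15.16, 14.88 and 15.14 (GFP-) and 14.21, 14.16, 14.25 and 14.41 (GFP+). The fractions did not overlap, and the difference was -0.63 ± 0.12 and -0.70 ± 0.12 (adjusted p = 0.000965 and 0.000327, with the vehicle call lost at an adjusted p of 0.053 once array medians were set equal). All 16 values were far above the background.

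Mcm2, a helicase subunit, read 8.65, 9.34, 8.59 and 8.96 in vehicle GFP- and 6.505, 5.87, 6.61 and 6.48 in vehicle GFP+ samples. With odor it read 8.17, 9.11, 8.94 and 8.97 (GFP-) and 6.05, 7.04, 6.20 and 6.03 (GFP+), with the GFP+ sample of pool 2 above the other 3. The differences were -2.52 ± 0.26 and -2.46 ± 0.26 (adjusted p = 8.53e-07 and 1.10e-06). Mcm3, another subunit, was at 8.33, 8.34, 7.18 and 8.32 in vehicle GFP- and 4.37, 5.25, 5.41 and 4.68 in vehicle GFP+ cells. Its odor levels were 7.33, 8.37, 8.13 and 8.43 (GFP-) and 5.74, 4.83, 6.21 and 5.15 (GFP+). The GFP- sample of vehicle pool 3 was the lowest of its group, and all GFP+ values were at or below background. The measured differences were -3.12 ± 0.34 and -2.58 ± 0.34 (adjusted p = 2.04e-06 and 1.78e-05), and the bound was at least 2.81-fold in the vehicle and 3.26-fold in the odor pools.

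Mcm4 is a further helicase subunit. Its vehicle levels were 9.76, 10.14, 9.50 and 9.87 in GFP- and 9.24, 8.58, 9.65 and 9.34 in GFP+ cells, and its odor levels 9.57, 9.88, 9.86 and 9.97 (GFP-) and 9.19, 8.62, 8.82 and 9.20 (GFP+). In the vehicle pools the fractions overlapped, and in pool 3 the GFP+ sample was the higher by 0.15. The differences were -0.61 ± 0.21 (adjusted p = 0.0428) and -0.87 ± 0.21 (adjusted p = 0.00533). The vehicle call did not hold with the pool as a block (adjusted p = 0.093), nor without the GFP- sample of pool 1, 2 or 4 (0.069, 0.132 and 0.086) or the GFP+ sample of pool 1, 2 or 4 (0.066, 0.122 and 0.053). Its adjusted p ran from 0.016 to 0.288 over the alternatives, with the highest value without both samples of vehicle pool 2. Mcm5 and Mcm6 were lower, at -2.53 ± 0.23 and -2.12 ± 0.25 in the vehicle pools, and at -2.11 ± 0.23 and -2.72 ± 0.25 in the odor pools. Mcm5 was not above background in GFP+ cells, with bounds of at least 3.55-fold and 3.4-fold.

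The enzymes of nucleotide supply had medians of -0.998 in the vehicle and -0.997 in the odor pools. Rrm2, the subunit of ribonucleotide reductase that is made in S phase, was at 11.25, 11.72, 9.93 and 11.43 in vehicle GFP- and 6.99, 6.95, 6.79 and 6.98 in vehicle GFP+ samples. The odor pools gave 9.86, 11.42, 10.70 and 11.53 (GFP-) and 7.09, 7.64, 7.15 and 7.48 (GFP+). Its differences of -4.16 ± 0.35 and -3.54 ± 0.35 (adjusted p = 1.14e-07 and 7.13e-07) left no overlap between the fractions. Rrm1, the large subunit of the same enzyme, was lower, at -1.22 ± 0.17 and -1.14 ± 0.17. Tyms, which makes thymidylate, was lower, at -0.77 ± 0.21 (adjusted p = 0.0129) and -0.85 ± 0.21 (adjusted p = 0.00688), and with quantile normalization neither call held (adjusted p = 0.096 and 0.071).

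Tk1, the cytosolic thymidine kinase that salvages thymidine, was a dim member. Its vehicle levels were 6.43, 6.29, 6.28 and 6.10 in GFP- and 5.49, 5.80, 5.71 and 5.72 in GFP+ cells, and its odor levels 5.32, 5.77, 5.79 and 6.06 (GFP-) and 5.98, 5.75, 5.76 and 5.85 (GFP+). The vehicle GFP- samples were the highest, the odor fractions overlapped, and 3 groups were not above background. The difference was -0.59 ± 0.14 in the vehicle pools (adjusted p = 0.0056, and 0.125 with array medians set equal) and 0.10 ± 0.14 in the odor pools (adjusted p = 0.649). The odor value turned to -0.039 without the GFP- sample of pool 1 and to -0.087 without both samples of that pool. With array medians set equal it was 0.42 (adjusted p = 0.015), while the median of all probe sets was 0.46.

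**Figure D2:**
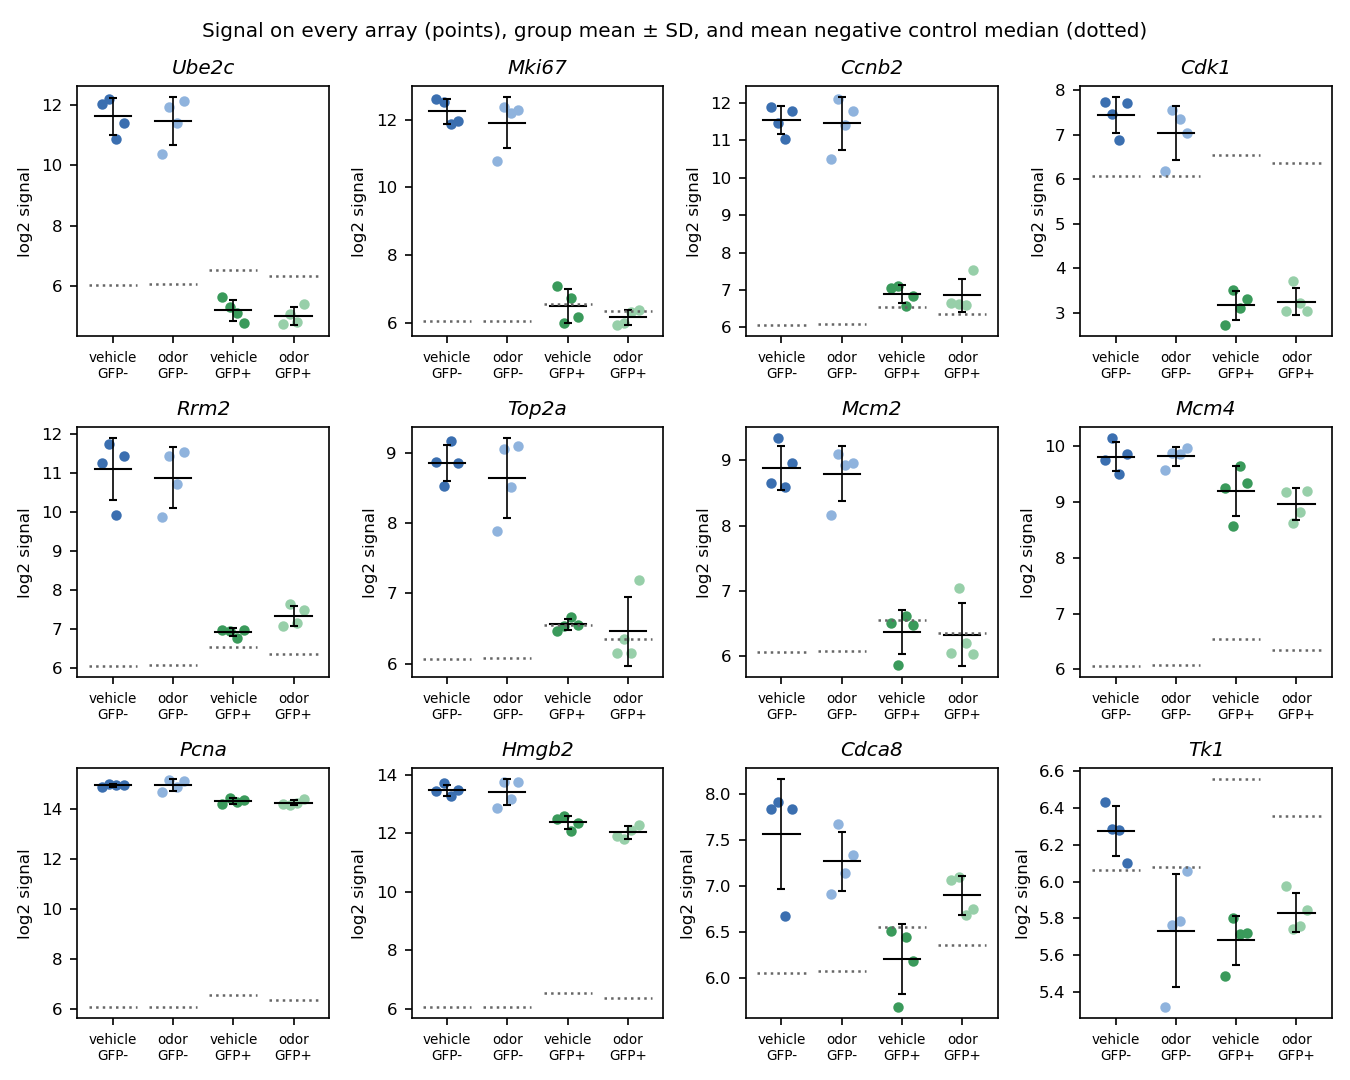
Log2 signal of 12 members on every array (1 point an array, 4 a group, in the order vehicle GFP-, odor GFP-, vehicle GFP+ and odor GFP+), with the group mean ± SD, the negative control median averaged over the group (dotted) and an axis for each panel. Mki67 and Cdk1 separate by fraction on all arrays, while the fractions of Tk1 overlap in the odor pools.

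The mitotic kinases and the chromosomal passenger complex (Aurkb, Birc5 and Cdca8, which correct the attachment of chromosomes to the spindle) had medians of -1.54 and -1.31. Plk1, the kinase that starts mitotic entry and centrosome maturation, was at 10.02, 10.51, 10.14 and 10.04 in vehicle GFP- and 6.03, 6.82, 6.49 and 6.68 in vehicle GFP+ cells. With odor it was at 9.14, 10.22, 10.29 and 10.34 (GFP-) and 6.73, 5.98, 7.14 and 7.02 (GFP+). Both fractions stood apart in all pools, with differences of -3.67 ± 0.28 and -3.28 ± 0.28 (adjusted p = 2.84e-08 and 1.06e-07), and the GFP- sample of odor pool 1 was the lowest of its group. Aurkb, the kinase of the complex, was lower, at -2.52 ± 0.28 and -2.68 ± 0.28, and Birc5, survivin, at -1.54 ± 0.25 and -1.31 ± 0.25.

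Aurka, the kinase of spindle poles, had the smallest vehicle difference of this group. It read 7.27, 7.76, 7.30 and 7.16 in vehicle GFP- and 6.01, 6.69, 6.80 and 6.76 in vehicle GFP+ samples, and 6.76, 7.38, 7.28 and 7.59 (GFP-) and 6.13, 5.68, 6.14 and 6.74 (GFP+) in the odor samples. The difference was -0.81 ± 0.23 (adjusted p = 0.0192) in the vehicle pools, without overlap. The call was lost in 5 of 15 alternatives, among them those without the GFP+ sample of pool 1 (adjusted p = 0.067), without the GFP- sample of pool 2 (0.070) and without both samples of pool 2 (0.080), and the highest was 0.143 with quantile normalization. With odor it was -1.08 ± 0.23 (adjusted p = 0.0025). Cdca8, borealin, was at 7.84, 7.91, 6.68 and 7.83 in vehicle GFP- and 6.52, 5.69, 6.45 and 6.19 in vehicle GFP+ samples, and at 6.92, 7.67, 7.14 and 7.34 (GFP-) and 7.07, 7.10, 6.69 and 6.75 (GFP+) in the odor samples. It was lower in the vehicle pools, at -1.35 ± 0.26 (adjusted p = 0.000752), and its odor fractions overlapped, with a difference of -0.37 ± 0.26 (adjusted p = 0.319). The GFP- sample of vehicle pool 3 was the lowest of its group.

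Genes of the anaphase-promoting complex and the spindle checkpoint had measured medians of -3.47 and -3.38 (-2.39 and -2.49 with bounds). Ube2c, the ubiquitin-conjugating enzyme of the complex, had large measured differences. Its vehicle levels were 12.03, 12.19, 10.87 and 11.39 in GFP- and 5.64, 5.31, 5.13 and 4.80 in GFP+ cells, and its odor levels 10.38, 11.94, 11.40 and 12.12 (GFP-) and 4.77, 5.10, 4.82 and 5.41 (GFP+). No GFP+ sample was above background, so the differences of -6.40 ± 0.34 and -6.43 ± 0.34 (adjusted p = 5.45e-10 and 5.16e-10) stand for at least 33.5-fold and 34.3-fold. Bub1b, the checkpoint kinase-like protein BubR1, acts in the spindle checkpoint. Its levels were 8.50, 8.90, 8.33 and 9.05 (GFP-) and 5.73, 5.32, 6.43 and 6.87 (GFP+) in the vehicle samples, and 7.91, 8.86, 8.87 and 9.15 (GFP-) and 6.09, 5.31, 5.23 and 6.38 (GFP+) in the odor pools. It was lower, at -2.61 ± 0.34 and -2.94 ± 0.34 (adjusted p = 1.72e-05 and 4.29e-06), without overlap. The checkpoint kinase Bub1 was lower, at -4.30 ± 0.32 and -3.81 ± 0.32, and Cdc20, which activates the complex, at -2.65 ± 0.26 and -2.44 ± 0.26. Neither was above background in GFP+ cells, and the bounds were at least 4.52-fold and 4.11-fold for Bub1 and 1.43-fold and 1.36-fold for Cdc20.

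At the kinetochore, where chromosomes bind microtubules, the measured medians were -1.97 and -1.91 (-1.32 and -1.43 with bounds). Ndc80, which makes that bond, was at 7.93, 7.90, 7.58 and 8.10 in vehicle GFP- and 4.70, 4.97, 5.50 and 5.41 in vehicle GFP+ samples. The odor samples were at 7.12, 8.01, 8.01 and 8.01 (GFP-) and 5.02, 5.70, 4.95 and 5.18 (GFP+). The GFP+ samples were not above background, and the GFP- sample of odor pool 1 was the lowest of its group. The measured differences were -2.73 ± 0.23 and -2.58 ± 0.23 (adjusted p = 1.02e-07 and 1.96e-07), and the bounds were at least 2.5-fold and 2.69-fold. Cenpf, a large protein of the outer kinetochore, was dim throughout, at 6.31, 6.25, 5.90 and 5.87 (GFP-) and 5.12, 4.97, 5.48 and 4.62 (GFP+) in the vehicle samples and at 5.63, 6.37, 5.85 and 6.42 (GFP-) and 5.35, 4.71, 5.30 and 5.48 (GFP+) in the odor pools. Its differences of -1.04 ± 0.22 and -0.86 ± 0.22 passed (adjusted p = 0.00203 and 0.0089), but against the background level it has no fold of its own. The kinetochore motor Cenpe was lower, at -1.97 ± 0.25 and -1.91 ± 0.25.

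Spindle motors and microtubule-binding proteins had measured medians of -3.09 and -3.18 (-2.66 and -2.82 with bounds). Nusap1, which bundles spindle microtubules, was at 10.47, 10.91, 9.96 and 10.70 in vehicle GFP- and 6.71, 6.67, 6.81 and 6.10 in vehicle GFP+ samples, and at 9.16, 10.53, 10.35 and 10.83 (GFP-) and 6.97, 6.70, 6.73 and 6.34 (GFP+) in the odor samples. The fractions were far apart, with differences of -3.94 ± 0.29 and -3.53 ± 0.29 (adjusted p = 2.47e-08 and 8.90e-08). Prc1 crosslinks microtubules of the central spindle. Its vehicle levels were 8.69, 9.07, 8.48 and 8.82 (GFP-) and 8.05, 7.33, 8.29 and 8.25 (GFP+), and its odor levels 8.39, 8.95, 8.49 and 8.68 (GFP-) and 8.30, 7.92, 7.95 and 8.20 (GFP+). The fractions did not overlap. Prc1 was lower in the vehicle pools, at -0.79 ± 0.20 (adjusted p = 0.00812) and at -0.54 ± 0.20 in the odor pools (adjusted p = 0.061), where it passed at 0.031 when only the odor arrays were fitted. Without vehicle pool 2 the vehicle call was lost (adjusted p = 0.062).

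The motors Kif11, which pushes spindle poles apart, and Kif23, which acts in cytokinesis, were lower, at -3.08 ± 0.19 and -3.11 ± 0.25 in the vehicle pools and at -3.15 ± 0.19 and -3.22 ± 0.25 in the odor pools. Kif20a, another motor of cytokinesis, was lower, at -2.79 ± 0.34 and -3.35 ± 0.34, and Tpx2, which activates Aurka, at -3.09 ± 0.37 and -2.99 ± 0.37. Kif20a and Tpx2 were not above background in GFP+ cells, with vehicle bounds of at least 2.29-fold and 4.7-fold. In all, 11 of 34 members were not above background in GFP+ cells of either stimulus. Taking the 75th percentile of the negative controls as background made it 26 in vehicle and 27 in odor cells.

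The differences of the vehicle and odor pools came from separate mice and arrays. Over the 34 members they ran alike, with Pearson's r of 0.973 and Spearman's rho of 0.952 as a description across genes, which are not independent replicates. The gap between both differences had a median of 0.22 and was under 0.5 for 28 members. It was largest for Cdca8 (0.99), Tk1 (0.69) and Rrm2 (0.62).

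Other genes of the cycle, taken from lists that hold no member, were lower in GFP+ cells to different degrees. Of all probe sets, 11.8% were lower in the vehicle and 11.9% in the odor pools. Of 52 other mitosis genes, 48 were lower in the vehicle and 46 in the odor pools, with medians of -1.52 and -1.42. In the vehicle pools Pbk, a mitotic kinase, was at -4.35 and Pttg1, securin, at 0.13. Values of genes outside the members are measured differences, with no bound set for genes near background. Of 35 other replication genes, 12 and 11 were lower, with medians of -0.29 and -0.33. Their vehicle differences ran from -2.96 (Asf1b, a histone chaperone) to 0.43, and Rfc5, a clamp loader subunit, was nearest to 0 at 0.0076. None of either list was higher. Of 21 probe sets of G1 cyclins, their kinases and E2F factors, 13 and 11 were lower (medians -0.64 and -0.51), among them E2f2, an activating E2F factor, at -5.63, while Mycn was at 0.00028. Of 22 genes that restrain cycling, 10 were lower in each kind of pool (medians -0.57 and -0.41), among them Btg2, an antiproliferative gene, at -4.39, and Cdkn1c, a kinase inhibitor, was at -0.064.

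Markers of several cell types moved with the members between the fractions. Of 12 measured markers of globose basal cells and neuronal precursors, 8 were lower in GFP+ cells of each stimulus (medians -1.12 and -1.16). The shares of all probe sets that were lower were 11.8% with vehicle and 11.9% with odor. The list's mean level ranged from 8.51 to 8.96 over the GFP- and from 7.499 to 7.770 over the GFP+ samples, and 4 of the 12 were not above background in GFP+ cells of each stimulus. Kit, a receptor of these precursors, was at -3.54, and Tubb3 was at 0.0086. Of 17 immature neuron markers, 11 and 10 were lower (medians -0.74 and -0.57), and of 23 mature neuron markers none was lower and 5 were higher in each (medians 0.18 and 0.17), as were 9.34% and 11.3% of all probe sets. The 5 include S100a5, the gene the reporter is named for, so its call is not independent of the sort. Of 10 horizontal basal cell markers, 1 was lower in the vehicle and none in the odor pools, not above the shares of all probe sets. In each group 7 of the 10 were not above background.

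Blood cell markers moved too. Of 11 neutrophil precursor markers, 10 were lower in each stimulus (medians -3.29 and -3.33), with mean levels of 9.67 to 10.89 over the GFP- and 6.18 to 6.84 over the GFP+ samples. Chil3 was at -7.97 and Gfi1 was at -0.042. Of 10 erythroid markers, 9 were lower in each (medians -1.39 and -1.47), with mean levels of 8.71 to 9.89 and 7.34 to 7.67. Rhag was at -4.85 and Epor was at -0.35. All 12 neutrophil markers were lower (medians -7.79 and -7.41), as were 10 of 11 T and NK cell markers in each stimulus and 11 of 15 macrophage and dendritic cell markers in each. Of 14 B lineage markers, 9 were lower with vehicle and 8 with odor, where 1 was higher. Among the epithelial lists, 12 and 11 of 14 microvillar and chemosensory markers and 4 and 6 of 14 sustentacular markers were lower. Of 12 gland and respiratory markers 2 and 1, and of 14 fibroblast, endothelial and glial markers 2 and 3 were lower, against 11.8% and 11.9% of all probe sets. Of the erythroid markers 4 of 10, and of the neutrophil precursor markers 4 of 11 in vehicle and 3 of 11 in odor samples, were not above background in GFP+ cells, and in GFP- cells none was. The part of each of these cell types in the members' differences was not tested.

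The next comparison asks whether odor changed the members within a fraction. No member passed in GFP+ cells (limma, 0.0766% of all probe sets passed), in GFP- cells (0.0495%) or for the change of the sort difference (0.063%). At an unadjusted p under 0.05 there were 1, 1 and 2 members, against 7.15%, 2.61% and 4.65% of all probe sets. Odor minus vehicle had medians over the members of -0.044 in GFP+ and -0.098 in GFP- cells. The standard errors were 0.12 to 0.37, and the 95% interval of the difference lay within 1 log2 unit of 0 for 27 members in GFP+ and 32 in GFP- cells. In GFP+ cells 11 of the 34 members were not above background with either stimulus. Their GFP+ intervals compare background signals and so set no limit on a change with odor.

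The members with an unadjusted p under 0.05 were Cdca8 in GFP+ cells, Tk1 in GFP- cells, and both for the change of the sort difference. In GFP+ cells odor minus vehicle was 0.69 ± 0.26 for Cdca8 (adjusted p = 0.591), where the 4 odor samples lay above the 4 vehicle samples. Tk1 was at -0.54 ± 0.14 in GFP- cells (adjusted p = 0.906), with all 4 odor samples below the vehicle samples. The change of the sort difference was 0.99 ± 0.36 for Cdca8 and 0.69 ± 0.20 for Tk1 (adjusted p = 0.96 and 0.703). Groups did not overlap for Rrm2 and Cdca8 in GFP+ cells (2.86% of all probe sets, either direction) and for Tk1 in GFP- cells (2.61%). For Mki67 the interval was -1.0 to 0.32 in GFP+ cells, where its level lay near background, and -1.0 to 0.33 in GFP- cells. For Pcna the intervals were -0.33 to 0.19 and -0.25 to 0.26.

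**Figure D3:**
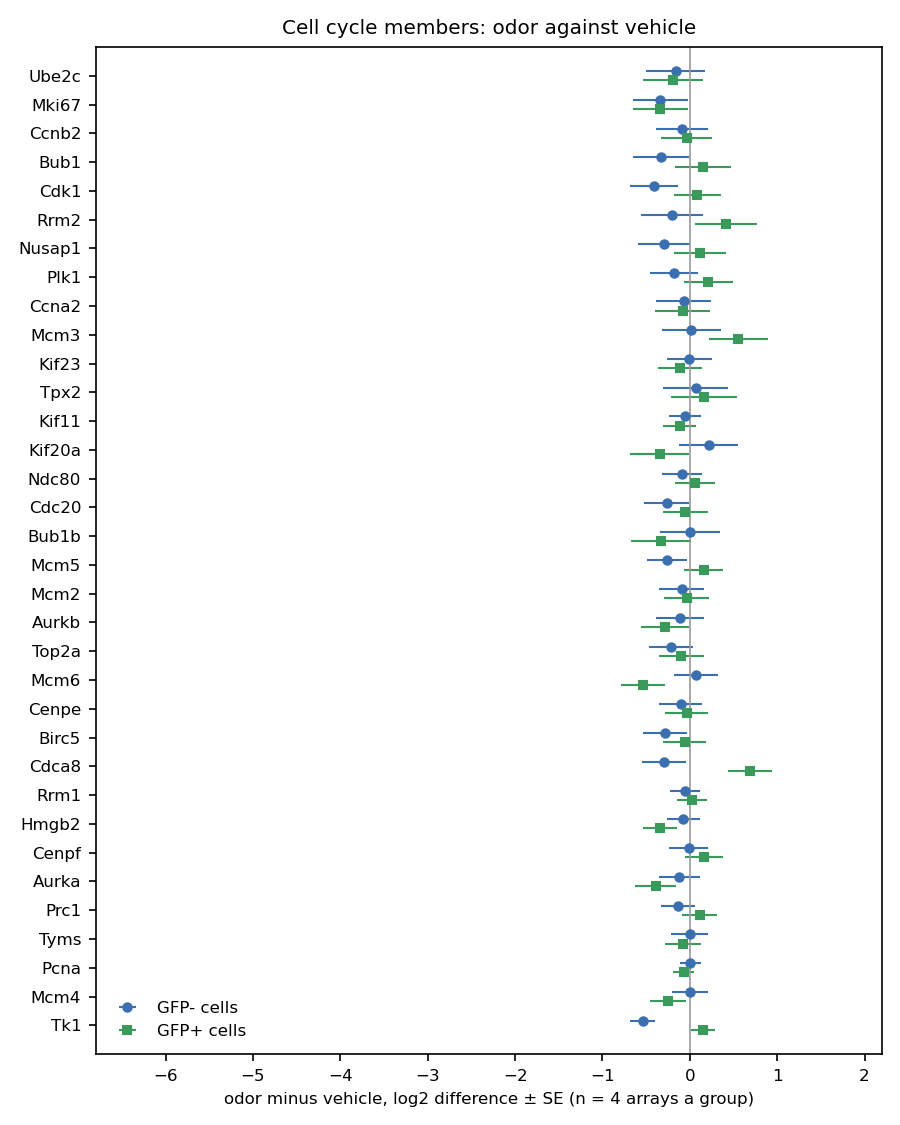
Odor minus vehicle difference of each of the 34 members in log2 units, with its standard error, in GFP+ cells and in GFP- cells, 4 arrays a group. The points lie around 0 (medians -0.044 and -0.098), with Cdca8 at 0.69 in GFP+ and Tk1 at -0.54 in GFP- cells.

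Between pools, many members shared their lowest GFP- sample. In odor pool 1, 33 of 34 members had the lowest value of their 4 GFP- samples, against 26.6% of all probe sets, and their median deviation from the group mean was -0.68. In vehicle pool 3 the lowest value fell there for 24 of 34, against 29.1% of all, with a median deviation of -0.30. The mean level of the members was 9.43, 9.58, 9.02 and 9.36 over the vehicle and 8.56, 9.50, 9.31 and 9.51 over the odor GFP- samples of pools 1 to 4. In GFP+ samples it was 6.67 to 6.83 and 6.66 to 6.82. Odor minus vehicle was below 0 in GFP- cells for 27 of 34 members, but for 9 of 34 without the GFP- sample of odor pool 1, where the median was 0.10 instead of -0.098.

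Markers of other cells also varied between these samples. Of 14 cell type lists, 7 had their lowest mean GFP- level in odor pool 1, where 26.6% of all probe sets were lowest. In vehicle pool 3 it was 3 of 14, a share not above the 29.1% of all probe sets. These 3, the erythroid, T and NK cell, and macrophage and dendritic cell lists, were lowest in both. The other 4 lowest in odor pool 1 were the neutrophil, neutrophil precursor, B lineage and horizontal basal lists. The horizontal basal list ran only from 5.89 to 6.10 over the odor GFP- samples, with 7 of its 10 markers not above background. The erythroid list had mean levels of 9.70, 9.87, 8.89 and 9.51 over the vehicle and 8.71, 9.89, 9.25 and 9.82 over the odor GFP- samples, lowest in vehicle pool 3 and odor pool 1. The macrophage and dendritic cell list was at 10.04, 10.61, 9.91 and 10.66, and at 9.56, 10.49, 9.97 and 10.58. The T and NK cell list was at 7.43, 7.48, 7.37 and 7.39, and at 7.14, 7.45, 7.46 and 8.03, a narrow range over the vehicle samples. The neutrophil precursor list was at 10.47, 10.41, 10.34 and 10.04, and at 9.67, 10.52, 10.89 and 10.44. The globose basal list was at 8.72, 8.85, 8.96 and 8.52, and at 8.58, 8.70, 8.87 and 8.51, with vehicle pool 3 the highest of its group and odor pool 4 the lowest. The part of these cells in the spread between pools was not tested.

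**Figure D4:**
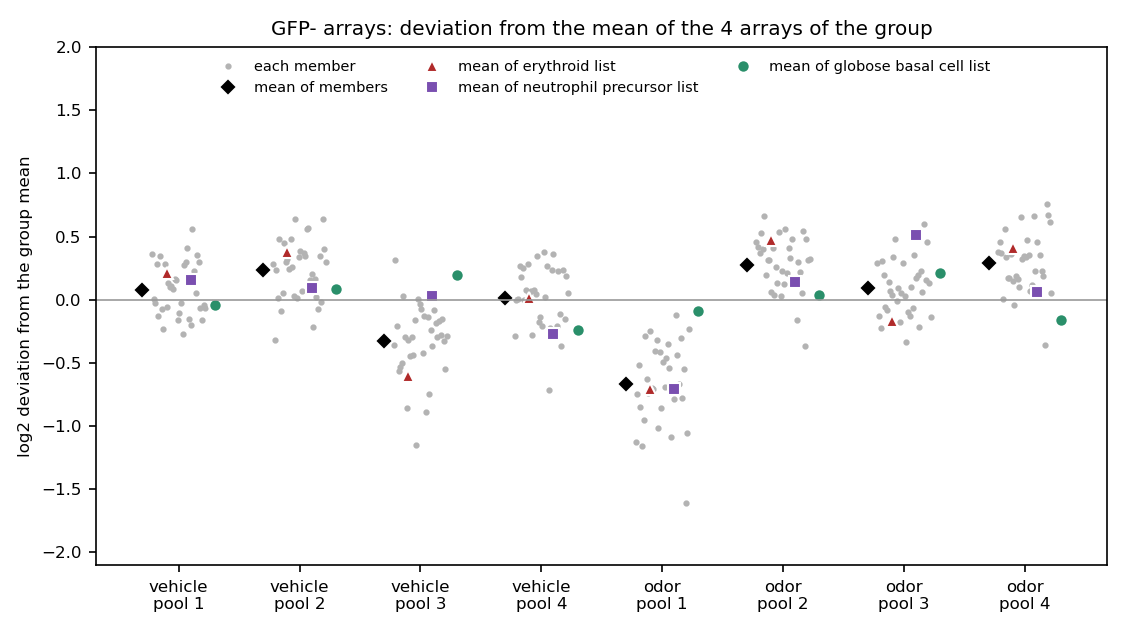
Deviation of the GFP- samples from the mean of their group in log2 units, for each of the 34 members (dots) and for the means of the members and of 3 of the 14 cell type lists, by pool. The members' mean lies lowest in odor pool 1 (-0.66), where the erythroid and neutrophil precursor lists are also low.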

How the data were processed

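RNA of 16 sorted samples was measured on Clariom S mouse arrays. The authors deposited log2 signals per probe set, and the submitters' processing notes name Affymetrix Expression Console. For its version and normalization nothing was given in the sources used here. Of 28846 features, 6640 control entries were left out of the tests, and 19572 of the 22206 probe sets tested carried 1 gene symbol. The members, their roles and the gene lists were chosen with earlier results of these data known.

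All 16 arrays entered 1 model with 4 group means, using limma 3.58.1 under R 4.3.3 (lmFit and eBayes, two-sided, 16.66 total degrees of freedom), and p-values were adjusted by Benjamini-Hochberg over the tested probe sets at a threshold of 0.05. No filter, scaling or pseudocount was applied. The fit was tested on simulated data.

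Values on every array were given for Mki67, Top2a, Cdk1, Pcna and Mcm2, for the members of each role group with the largest and smallest vehicle difference, and for members that missed the threshold in a sort. From the other lists the genes with the largest and smallest vehicle differences were named, and S100a5 and Omp as checks of reporter and tissue. Ebf1 is in both the B lineage and mature neuron lists, and Dcn in both the horizontal basal and fibroblast lists.

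Alternatives were array medians set equal, quantile normalization, removal of dim probe sets, an intensity trend, only the compared groups, each array left out, and the replicate block. GFP+ and GFP- arrays of a pool come from the same mice by the labels, and their deviations from group means correlated at 0.012 to 0.183 in the odor and 0.059 to 0.224 in the vehicle pools. Same-numbered odor and vehicle arrays correlated at 0.186 to 0.290 in GFP- and 0.031 to 0.256 in GFP+ cells. The main fit took neither pools nor numbers as pairs, and both were blocks in alternatives only. The number of arrays limits the precision.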

Additional observations from a re-analysis of the deposited data

Results flagged for a closer look

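In each group of 4 arrays the array farthest from the others was compared with a critical gap of 0.829 of the group's range. Of 136 groups of member values 13 exceeded it. For independent groups chance gives about 1 in 20. The members share the same 16 arrays, so the groups are not independent and the count was not tested against that rate. In 5 the low array was the GFP- sample of odor pool 1, with Mki67 at 10.78 against 12.19 for the next value, Rrm1 at 11.26 against 11.67, Plk1 at 9.138 against 10.22, Ndc80 at 7.116 against 8.005 and Tpx2 at 7.245 against 9.313. These 5 belong to the pool that was lowest for 33 of 34 members.

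In vehicle pool 3 the GFP- sample was the low one for Mcm3 (7.184 against 8.324) and Cdca8 (6.676 against 7.832), and the GFP+ sample for Rrm2 (6.786 against 6.954) and Bub1 (3.271 against 4.682). The remaining 4 were GFP+ samples, with Aurka low in vehicle pool 1 (6.009), Cdc20 high in vehicle pool 2 (4.923), Mcm2 high in odor pool 2 (7.043) and Ccnb2 high in odor pool 4 (7.52). Bub1 and Cdc20 were not above background there.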

How the results depend on the processing

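Of 34 members, 28 in the vehicle and 31 in the odor pools kept their call under all 15 alternatives each. The vehicle count of 34 became 28 with array medians equal, 32 with quantile normalization and 31 without vehicle pool 2, which was chosen after seeing the data. Leaving out 1 array gave 32 to 34. The odor count of 31 ranged from 30 to 32 and stayed at 31 with each array left out. For Tk1 of the odor pools, leaving out 1 array moved 0.10 to between -0.039 (without the GFP- array of pool 1) and 0.21, and leaving out both arrays of pool 1, also chosen after seeing the data, gave -0.087. The cause was not tested. No member passed in the odor comparisons under the alternatives run. With the pool as replicate block the counts were 33 and 31, since Mcm4 was lost in the vehicle pools. No other member's call changed with a block, and with the replicate number as block none of 34 passed (0 in GFP+ and 0 in GFP- cells). The share of promoters with a CHR rose from 31% to 58.6% with the window to 50 bases after the start, and members not above background went from 11 to 26 and 27 with the 75th percentile. Signal over background limits the fold of the dim members, and fitting only the compared groups does not apply to the change of the sort difference.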
